A study of Mus musculus with 14 samples.

Results

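The sites described here are 1932 places in the mouse genome where a peak of Brg1 was called in cells given wild-type (wt) EBF1 and in none of the other 4 fetal liver Brg1 libraries. They were chosen from the deposited peak lists: a wt peak on chromosomes 1 to 19, X or Y was kept when no peak of the empty-vector, dC, dPLD or F-GATA3 list overlapped it by even 1 bp. They make up 6.58% of the 29354 wt peaks and are called wt-list-only peaks below. All 5 lists served to choose them, so their absence from the other 4 lists and their own height and width are a description and not a finding. Each group had 1 library, and no comparison between conditions could be tested.

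The question of the study was whether EBF1, through its C-terminal domain, helps bring Brg1 to chromatin. The fetal liver cells were c-kit+ lymphocyte progenitors of C57BL/6 EBF1 -/- embryos of day 16 to 18, so that any EBF1 in them came from the introduced vector. They had been transduced with pMys retroviral vectors that also encode GFP, carrying no EBF1 (empty), EBF1 wt, EBF1 dC, EBF1 d480-520 (the dPLD library, lacking residues 480 to 520) or EBF1 F-GATA3, and were grown for 14 to 20 days on OP9 stromal cells with IL7, SCF and Flt3. Abelson virus (A-MuLV) transformed C57BL/6 pro-B cells, whose EBF1 had been replaced by EBF1 wt or dC, gave 2 further Brg1 libraries and 2 EBF1 libraries. The fetal liver cells were fixed with 2% formaldehyde and the A-MuLV cells with 1%. Fixation and cell system therefore cannot be told apart where fetal liver and A-MuLV lists are compared. By their labels, the wt and F-GATA3 fetal liver cells and all A-MuLV cells were at the pro-B stage, whereas empty-vector cells were held up before it and the dC and dPLD cells partly so. The version of EBF1 and the stage reached therefore cannot be told apart in the fetal liver lists. No transcripts were measured, so the labelled stages were not checked against marker genes.

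EBF1 is a transcription factor that commits lymphoid progenitors to the B lineage. It binds DNA as a dimer at a palindrome with a core of the form CCCNNGGG. Brg1, the product of Smarca4, is an ATPase of the BAF complexes, which use ATP to move or remove nucleosomes and so open enhancers and promoters. A peak is a stretch where the immunoprecipitated DNA piled up above the local background. Its fold is the authors' own value for that stretch, the ratio of the pileup at its summit to that background, and is used here to rank peaks within a list. The depth of the libraries is unknown, and where no peak was called the protein may still have been present.

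A genome sequence was not used here, so DNA letters were at hand only from promoter windows. These overlapped 125 of the 1871 sites on chromosomes with windows (6.68%). The windows reach from 250 bases before to 50 after an annotated start and come from RefSeq (GRCm38.p6). Of 32851 windows, 158 lay under a wt-list-only peak, and 8 of these also lay under an EBF1 peak of A-MuLV cells. A window counted as under a peak when they shared at least 1 bp, so its letters can lie partly outside the peak. The first 3 printed below are the windows among those 8 that hold the 10-letter palindrome TCCCNNGGGA. The window of Bpgm, the bisphosphoglycerate mutase of red cells, is the one of the 8 that lay under EBF1 peaks of both forms. The window of Il2ra, the alpha chain of the interleukin-2 receptor, is shown because it is a gene of the T lineage list with such a peak over its start. Capitals mark matches to CCCNNGGG, a palindrome contained in the longer one and therefore found on both strands at once.
Gm39984 (chr2:167079190-167079489, minus strand): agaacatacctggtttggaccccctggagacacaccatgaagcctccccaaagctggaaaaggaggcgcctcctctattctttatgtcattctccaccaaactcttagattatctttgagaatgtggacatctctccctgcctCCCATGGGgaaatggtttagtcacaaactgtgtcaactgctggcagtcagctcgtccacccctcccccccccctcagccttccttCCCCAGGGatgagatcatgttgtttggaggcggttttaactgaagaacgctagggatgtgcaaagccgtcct
Olfr98 (chr17:37263613-37263912, minus strand): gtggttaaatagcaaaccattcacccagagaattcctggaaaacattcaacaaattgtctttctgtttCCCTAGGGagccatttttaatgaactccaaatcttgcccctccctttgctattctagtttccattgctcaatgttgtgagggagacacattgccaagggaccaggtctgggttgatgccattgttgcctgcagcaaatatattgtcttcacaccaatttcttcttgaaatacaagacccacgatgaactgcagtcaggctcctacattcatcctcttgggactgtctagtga
Gm31493 (chr1:160003622-160003921, minus strand): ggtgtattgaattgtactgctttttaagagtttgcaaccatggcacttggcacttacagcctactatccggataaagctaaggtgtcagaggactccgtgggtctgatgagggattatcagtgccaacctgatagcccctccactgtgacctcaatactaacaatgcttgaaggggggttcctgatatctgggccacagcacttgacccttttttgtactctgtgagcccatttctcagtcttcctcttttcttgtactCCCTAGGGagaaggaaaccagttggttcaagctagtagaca
Bpgm (chr6:34476106-34476405, plus strand): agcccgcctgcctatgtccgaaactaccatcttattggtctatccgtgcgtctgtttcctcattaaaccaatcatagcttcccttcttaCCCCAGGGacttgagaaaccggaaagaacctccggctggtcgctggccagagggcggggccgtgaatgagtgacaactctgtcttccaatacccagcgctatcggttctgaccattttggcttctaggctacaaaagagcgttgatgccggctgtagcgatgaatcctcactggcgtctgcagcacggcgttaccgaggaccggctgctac
Il2ra (chr2:11642542-11642841, plus strand): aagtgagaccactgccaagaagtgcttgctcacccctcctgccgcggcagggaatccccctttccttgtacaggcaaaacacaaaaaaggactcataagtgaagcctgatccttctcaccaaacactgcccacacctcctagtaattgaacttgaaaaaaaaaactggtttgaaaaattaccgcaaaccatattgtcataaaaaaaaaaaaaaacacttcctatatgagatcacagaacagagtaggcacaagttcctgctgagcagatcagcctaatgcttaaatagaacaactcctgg

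The 8-letter core stood in 23 of the 158 windows under a wt-list-only peak (14.6%, 9.46 to 21.0), against 13.7% of all windows. Parentheses after a share give its exact Clopper-Pearson 95% interval, which covers counting error only. Under any wt Brg1 peak the core stood in 18.7% of windows, and under an EBF1 peak in 37.2% (34.9 to 39.6). It stood in 7 of the 8 windows that lay under both a wt-list-only peak and an EBF1 peak. The longer palindrome was found in 6 of the 158 windows (3.80%, 1.41 to 8.08), in 0.904% of all windows and in 6.67% of those under an EBF1 peak. A match is a description of the letters and not a measured site. The Gm39984 window has 2 cores, and EBF1 was called there with wt alone. EBF1 was also called with wt alone over the Olfr98 window, and with dC alone over the Gm31493 window. The Il2ra window holds no match, which says only that these letters are not in that window, and the EBF1 peak under the same Brg1 peak lay outside it.

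The wt-list-only peaks were low and narrow. Their median fold was 5.46 (interquartile range 5.06 to 6.01, from 1.54 to 12.6), against 7.20 (5.72 to 9.62, up to 41.5) over all wt peaks. Their median width was 517 bp (392 to 696), against 1103 bp (714 to 1650). The authors' −log10 q at the summit was under 15 in 75.2% of them and in 23.3% of all wt peaks, while the lowest value in the wt list was 10.0. Most of these sites were thus near the height at which the list ended, and only 160 of them (8.28%) reached a −log10 q of 20. For comparison, 10758 wt peaks overlapped no empty-vector peak and had a peak with all 3 altered versions (dC, dPLD and F-GATA3). These are called all-version peaks below, and their median fold was 7.60 and their median width 1227.5 bp. The cumulative plot of fold and width shows this shift over the whole range.

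**Figure D1:**
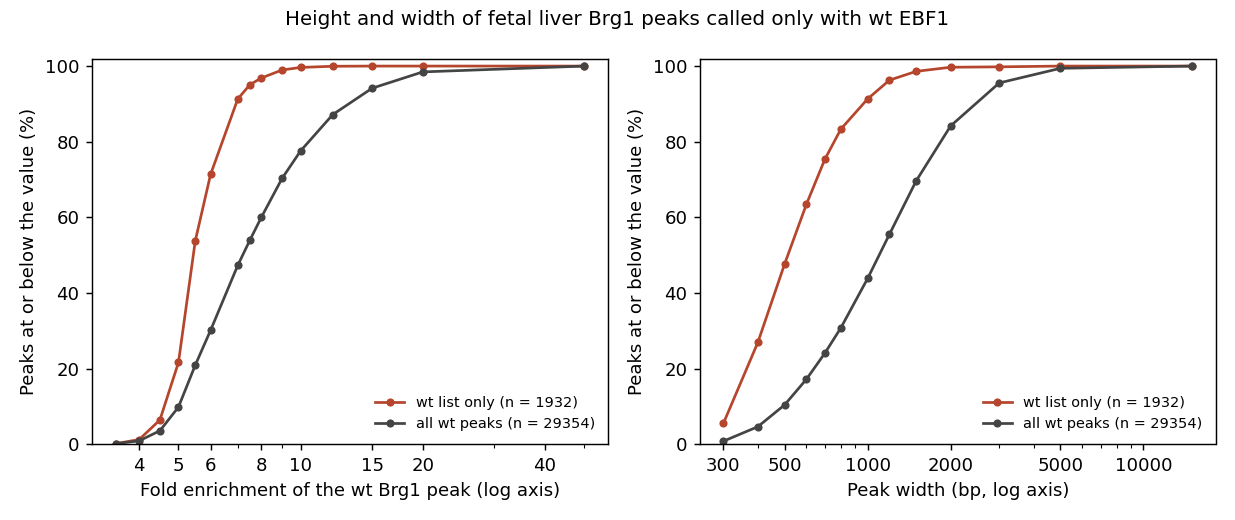
Cumulative share of peaks (%) against the authors' fold enrichment (left, log axis) and peak width in bp (right, log axis) for the 1932 wt-list-only Brg1 peaks and all 29354 fetal liver wt peaks. The wt-list-only curve lies to the left in both panels, with medians of 5.46 against 7.20 for fold and 517 against 1103 bp for width.

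Few of the sites lay right beside a peak of the other lists. The rule used these lists, so the distances are a description. The nearest peak of any of the other 4 lists lay a median of 8474 bp away, the closest 22 bp. It lay within 200 bp for 33 sites (1.71%), within 1 kb for 201 (10.4%), within 10 kb for 1051 (54.4%) and beyond 50 kb for 274 (14.2%). The 33 closest sites had a median fold of 5.28 and a median width of 681 bp. On the other side of the rule, 1 wt peak was left out by an overlap of less than 50 bp (29 bp, fold 4.65, width 699 bp). By list, the median distance was 13945.5 bp to a dC peak, 13159.5 bp to a dPLD peak, 13931 bp to an F-GATA3 peak and 32974 bp to an empty-vector peak. The empty-vector list was also the shortest, with 17687 peaks against 25072 to 30301 in the other lists named here. For scale, the nearest other peak of the wt list itself lay a median of 10371 bp from these sites.

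The A-MuLV lists played no part in the choice, and most of the sites were absent from all of them. No A-MuLV peak of Brg1 or EBF1 overlapped 1461 of the 1932 sites (75.6%, 73.6 to 77.5), against 36.9% of all wt peaks and 28.8% of the all-version peaks. A-MuLV Brg1 with wt EBF1 was called at 274 sites (14.2%, 12.7 to 15.8), where the background over all wt peaks was 49.7%. A-MuLV Brg1 with dC was called at 144 sites (7.45%, 6.32 to 8.72), against a background of 51.1%. Among the all-version peaks the shares were 57.1% and 59.3%. The wt-list-only sites thus lay far below the wt peaks as a whole in both A-MuLV Brg1 lists. Their wt share was the higher, whereas the all-version peaks had a slightly higher dC share. Low shares were not particular to them. Wt peaks without an empty-vector peak that were called with a single altered version had 23.7% with wt and 13.3% with dC. The 151 wt peaks shared with the empty-vector list alone had 11.9% and 3.31%, and 83.4% of them met no A-MuLV peak. Where A-MuLV Brg1 was called at these sites, its median fold was 5.29 in the wt list and 4.61 in the dC list, against 6.25 and 5.65 at all wt peaks.

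The sites called in a single A-MuLV Brg1 list fell mostly on the wt side, although the lists were of near equal length (24493 peaks with wt and 24420 with dC). Brg1 was called with wt and not dC at 205 sites (10.6%, 9.27 to 12.1), where the background over all wt peaks was 9.09%. It was called with dC and not wt at 75 (3.88%, 3.07 to 4.84), where the background was 10.6%. The wt-alone share was thus near the background, and the dC-alone share was below it. A further 69 sites were called in both. The wt list held 73.2% (67.6 to 78.3) of the 280 sites called in 1 list, against 46.3% of the 5766 such wt peaks overall and 44.8% of the 2294 such all-version peaks. This split was not particular to the wt-list-only peaks. Wt peaks without an empty-vector peak that were called with a single altered version had 402 of 545 (73.8%, 69.9 to 77.4) on the wt side. Those called with 2 altered versions had 51.1% there.

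EBF1 in A-MuLV cells was called at fewer of these sites than at wt peaks in general, but the gap was smaller than for Brg1. An EBF1 peak of either form overlapped 284 sites (14.7%, 13.1 to 16.4), against a background of 22.4%. When all wt peaks were weighted to the same distribution of fold as these sites, their share was 14.2%. The gap for EBF1 of either form was therefore not seen at like height. The EBF1 wt list covered 194 sites (10.0%, 8.74 to 11.5; background 13.4%) and the EBF1 dC list 220 (11.4%, 10.0 to 12.9; background 20.7%). EBF1 was called with both forms at 130 sites, with wt alone at 64 (background 1.63%) and with dC alone at 90 (background 9%). The wt-alone share of 3.31% was thus higher than the background, and the dC-alone share of 4.66% lower. Of the sites called with 1 form of EBF1, 41.6% (33.7 to 49.8) were called with wt, against 15.3% over all wt peaks. The wt peaks called with a single altered version stood higher on each measure, with EBF1 in wt alone at 5.88% and 49.7% of the sites called with 1 form on the wt side. The EBF1 dC list holds 11147 peaks and the wt list 6155, and the part of that difference in these shares was not tested.

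**Figure D2:**
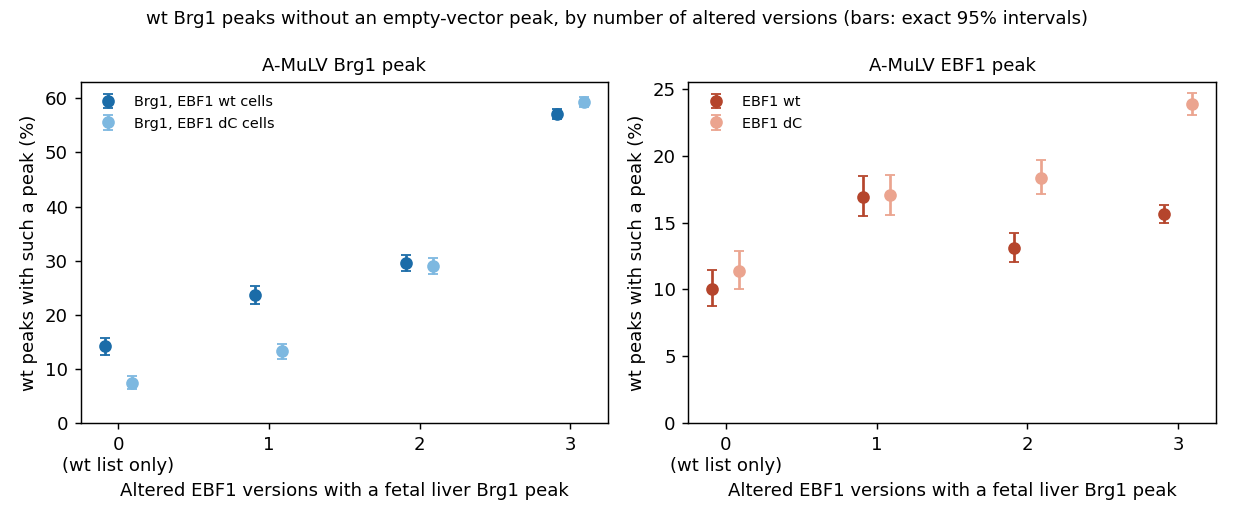
Share of fetal liver wt Brg1 peaks without an empty-vector peak (%) that overlap an A-MuLV Brg1 peak (left) or EBF1 peak (right), by the number of altered EBF1 versions (dC, dPLD, F-GATA3) that also had a Brg1 peak. Points are shares with exact 95% intervals; the wt-list-only peaks (0 versions) are lowest in both Brg1 lists, 14.2% and 7.45%, against 57.1% and 59.3% with 3 versions.

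Brg1 and EBF1 calls of the A-MuLV cells met at the same sites. At the 284 sites with an EBF1 peak, A-MuLV Brg1 was called with wt at 144 (50.7%, 44.7 to 56.7) and with dC at 49 (17.3%). At the 1648 sites without one, the shares were 7.89% and 5.76%. The wt and dC Brg1 lists therefore differed most where EBF1 was called. At the 64 sites with EBF1 wt alone, Brg1 was called with wt at 40 (62.5%) and with dC at 2 (3.12%). At the 90 sites with EBF1 dC alone, the numbers were 21 (23.3%) and 22 (24.4%). At the 130 sites with both forms, they were 83 (63.8%) and 25 (19.2%), so the wt list led even where EBF1 was called with both. The same split was seen at the wt peaks called with a single altered version and not with the empty vector, where EBF1 sites had Brg1 with wt at 59.2% and with dC at 24.1%, and sites of EBF1 wt alone at 69.9% and 2.74%. It was therefore not particular to the wt-list-only sites. Among all-version peaks with an EBF1 peak, the 2 shares lay close together, 81.2% with wt and 79.1% with dC. Read the other way, 113 of the 205 sites with A-MuLV Brg1 in wt alone had an EBF1 peak (55.1%), against 18 of 75 in dC alone (24.0%) and 122 of 1583 with neither (7.71%). Over all wt peaks, 36.6% of those with Brg1 in wt alone and 18.3% of those in dC alone had an EBF1 peak.

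The gap in the A-MuLV Brg1 shares was also seen at like height, but its size depended on the peaks set beside the sites. When the all-version peaks were weighted to the same distribution of fold, in 7 bins, 53.0% of them had an A-MuLV Brg1 wt peak and 54.5% a dC peak. Weighted alike, all wt peaks had 35.7% and 36.2%. Wt peaks called with a single altered version and not with the empty vector had 21.0% and 13.3%. These were much nearer to the 14.2% and 7.45% of the wt-list-only sites. The weighted EBF1 shares of the all-version peaks came to 7.0% with wt and 14.1% with dC. At the wt-list-only sites the EBF1 shares were 10.0% and 11.4%, so that for EBF1 wt the order turned. All wt peaks weighted alike had 7.63% and 12.8%. For EBF1 of either form, the weighted share was 14.2% for all wt peaks and 14.6% for the all-version peaks. It was 19.5% for wt peaks called with a single altered version and not with the empty vector. At the wt-list-only sites, EBF1 of either form stood at 14.7%. The gap in Brg1 to the all-version peaks was smaller at like width. Within a width of 328.1 to 953 bp, 13.1% of the wt-list-only peaks and 28.6% of the all-version peaks had A-MuLV Brg1 with wt, and 6.86% and 33.3% had it with dC. EBF1 wt was called at 10.0% and 8.53% in that band. Among the wt-list-only peaks themselves, the A-MuLV Brg1 shares followed no single order with height. The 124 with a fold up to 4.5 had an A-MuLV Brg1 wt peak at 27.4% and a dC peak at 18.5%, the 621 with a fold of 5 to 5.5 had them at 10.8% and 5.64%, and the 61 with a fold above 8 at 26.2% and 3.28%. Split at the median fold, the wt shares were 14.9% at or above it and 13.4% below.

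**Figure D3:**
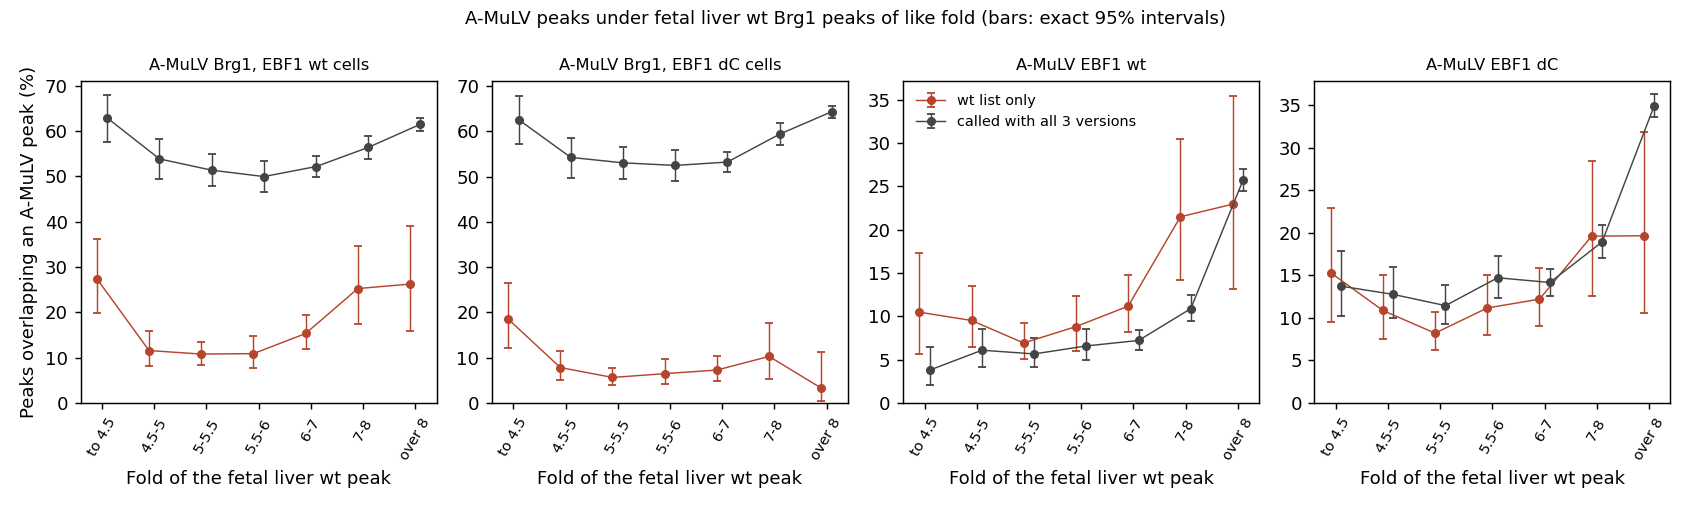
Share of fetal liver wt Brg1 peaks (%) with an overlapping A-MuLV peak of each of 4 lists, by bins of the authors' fold of the fetal liver peak, with exact 95% intervals. In each fold bin of both Brg1 panels the wt-list-only peaks lie below the peaks called with all 3 versions, while in the EBF1 panels the intervals overlap in most bins.

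Where EBF1 and Brg1 peaks overlapped, their summits lay close together. The median distance between the fetal liver Brg1 summit and the EBF1 wt summit was 45.5 bp at the 194 wt-list-only sites, and 165 of them (85.1%, 79.2 to 89.8) had it within 100 bp. At the all-version peaks the median was 48 bp, with 70.5% within 100 bp. For EBF1 dC the medians were 53.5 and 60 bp, with 78.6% and 63.1% within 100 bp. Within the shared width band of 328.1 to 953 bp, the order of the shares turned, within overlapping intervals. EBF1 wt summits lay within 100 bp at 87.7% (81.5 to 92.5) of the wt-list-only sites and 90.5% (86.4 to 93.7) of the all-version peaks, with medians of 40 and 35 bp. For EBF1 dC the numbers were 140 of 175 (73.3 to 85.7%) and 361 of 437 (78.7 to 86.0%), with medians of 51 and 38 bp.

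**Figure D4:**
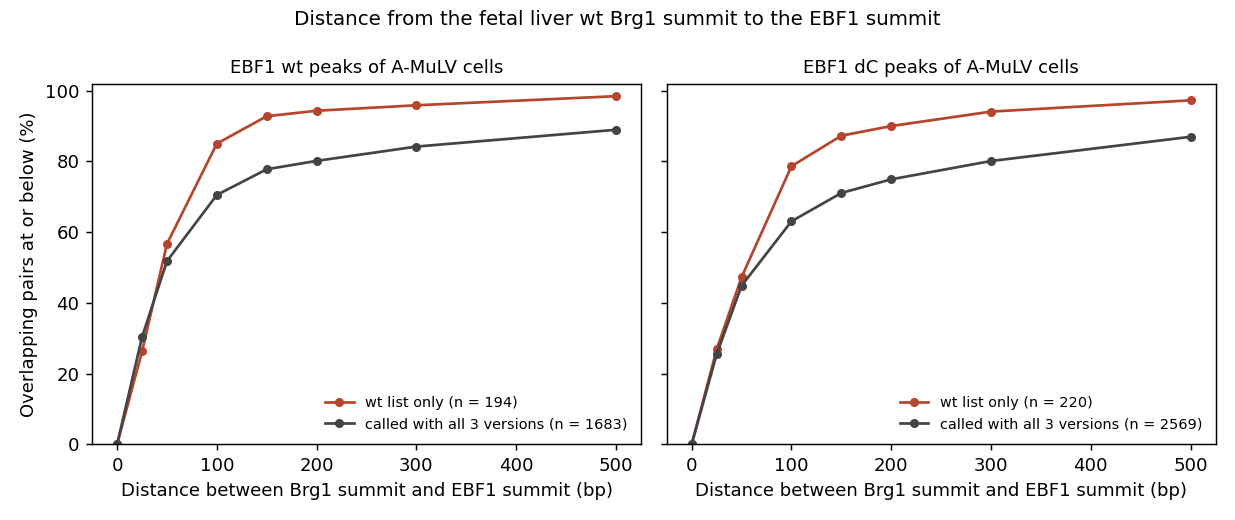
Cumulative share of overlapping pairs (%) against the distance in bp between the fetal liver wt Brg1 summit and the A-MuLV EBF1 summit, for EBF1 wt (left) and EBF1 dC (right). At 25 bp the wt-list-only curve is the lower for EBF1 wt, 26.3% against 30.4%, and at 100 bp it is the higher in both panels, 85.1% and 78.6% against 70.5% and 63.1% for peaks called with all 3 versions.

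Most of the sites lay away from gene starts. A promoter window was overlapped by 125 of 1871 sites on chromosomes with windows (6.68%, 5.59 to 7.91), where the background over wt peaks was 29%, and by 32.7% of the all-version peaks. The nearest annotated start was a median of 18.9 kb away, against 9.02 kb for all wt peaks, and 66.1% of the sites were more than 10 kb from one. This was not particular to the wt-list-only peaks. Wt peaks called with a single altered version and not with the empty vector had 8.18% over a window and a median of 17.3 kb. Those shared with the empty-vector list alone had 7.48% and 22.4 kb. Gene bodies held 1046 of the sites (54.1%), against 66.2% of all wt peaks. The A-MuLV values were alike off promoters: of the 1746 sites away from a window, 14.2% had Brg1 with wt, 6.99% Brg1 with dC and 14.8% EBF1. At the 125 sites over a window these shares were 15.2%, 12.0% and 9.60%. The all-version peaks differed more by position, with A-MuLV Brg1 wt at 81.2% over windows and 45.4% away from them. By chromosome, the share of wt peaks that were wt-list-only ran from 5.40% on chromosome 17 to 9.53% (7.04 to 12.5) on X, with 0 of 10 on Y.

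The highest of these peaks were mostly absent from the A-MuLV lists, as were the sites as a whole (75.6%). Of the 61 sites with a fold above 8, 26.2% had A-MuLV Brg1 with wt and 24.6% EBF1, against 14.2% and 14.7% of all the sites. For A-MuLV Brg1 with dC the order was the reverse, 3.28% against 7.45%. The highest lay in Cnn1, which encodes the smooth muscle actin-binding protein calponin (chr9:22107109-22108787, fold 12.6). It had A-MuLV Brg1 with wt alone, at a fold of 16.0, and EBF1 with both forms, at 15.4 with wt and 9.41 with dC. The next lay in Castor2, whose product takes part in arginine sensing upstream of mTORC1 (chr5:134121280-134122375, fold 11.4). It had the same pattern, with Brg1 at 9.82 with wt, no dC Brg1 peak, and EBF1 at 34.5 with wt and 18.6 with dC. The other 8 of the 10 highest had no A-MuLV peak of either protein. Among them were sites in Trpc4 (a cation channel, 10.8), Dgki (a diacylglycerol kinase, 10.7) and Lrrtm4 (a synaptic protein, 9.82), and sites outside genes nearest to Immp2l (11.1, at 294871 bp), Inhbb (10.7, at 49110 bp), Chmp2b (10.2, at 34417 bp) and Nedd9 (9.96, at 17827 bp). None of the genes named here is one of the B lineage list.

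Of the 8 highest sites with A-MuLV Brg1 in wt alone, 6 also had EBF1 peaks, with both forms. After Cnn1 and Castor2 the highest were in Plekhm1, an adaptor of lysosome fusion, and Sh3pxd2a, a scaffold of invasive protrusions, both at a fold of 9.09. The Plekhm1 site had A-MuLV Brg1 with wt at 8.37 and EBF1 at 12.7 with wt and 7.94 with dC. The highest sites with EBF1 in wt alone were in Zc3h7b (8.55), in Trmt9b, a tRNA methyltransferase homologue (8.34, EBF1 at 22.2, Brg1 with wt at 10.3), in Heyl, a Notch target repressor (8.19, EBF1 at 7.32, Brg1 with wt at 4.19), in Ppargc1b (7.82) and in the clock gene Arntl (7.67, EBF1 at 9.67, Brg1 with wt at 5.29). None of these 5 had a dC Brg1 peak.

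Genes of the B lineage list often had such a site nearby. A wt-list-only peak lay in or within 10 kb of 11 of its 32 genes (34.4%, 18.6 to 53.2), against a background of 6.69% of 21883 protein-coding genes. These genes had many Brg1 peaks of every kind: summed over the genes, 155 wt peaks lay near them, or 4.84 a gene against 1.50 for all genes. Counted once each, 152 wt peaks lay near the 32 genes, and 10 of them were wt-list-only (6.58%, 3.20 to 11.8), against 5.79% of the wt peaks near any protein-coding gene. The share of peaks was thus near the background. With the fetal liver lists held to equal length and the sites chosen anew, 2 of the 32 genes had such a site. The share over all protein-coding genes was then 3.66%. The list was chosen with earlier results of these data known.

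Each of the 11 genes had a single such peak, and Igll1 and Vpreb1 shared theirs. The highest was at Pax5, which holds cells to the B lineage (inside the gene, 6.77). Next came those at Bach2, a repressor of plasma cell differentiation (8602 bp outside the gene, 6.73), and Bst1, a surface enzyme of early B cells (inside the gene, 6.55). The one at Lef1, a Wnt-responsive factor of pro-B cells, followed (7713 bp outside the gene, 5.94). Lower ones were at Vpreb2, a surrogate light chain component (5.83), Ikzf3 (Aiolos, 5.73), Irf8 (5.46) and Ebf1 itself (5.13, inside the gene). A peak of fold 5.00 lay within 10 kb of both Igll1 and Vpreb1, the surrogate light chain genes, and a peak of 4.56 lay 2649 bp outside Tcf3, which encodes the E2A proteins, over the promoter window of its neighbour Uqcr11. Only the Ikzf3 site met an EBF1 peak, called with wt alone at 8.62, and it had no A-MuLV Brg1 peak. A-MuLV Brg1 was called with wt alone at the Bst1 site (3.03) and the Vpreb2 site (4.51). It was called with both at the Igll1 and Vpreb1 site (4.69 with wt, 4.83 with dC) and at the Tcf3 site (5.78 and 3.80). The other 5 genes had no A-MuLV peak at their site. A peak of another fetal liver list lay 362 bp from the Bst1 site, 588 bp from the Igll1 and Vpreb1 site and 772 bp from the Ikzf3 site. It lay farther from the other sites of these genes. Pax5, Ikzf3 and Ebf1 held 10, 7 and 12 fetal liver wt peaks in their bodies, of which 1 each was wt-list-only.

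**Figure D5:**
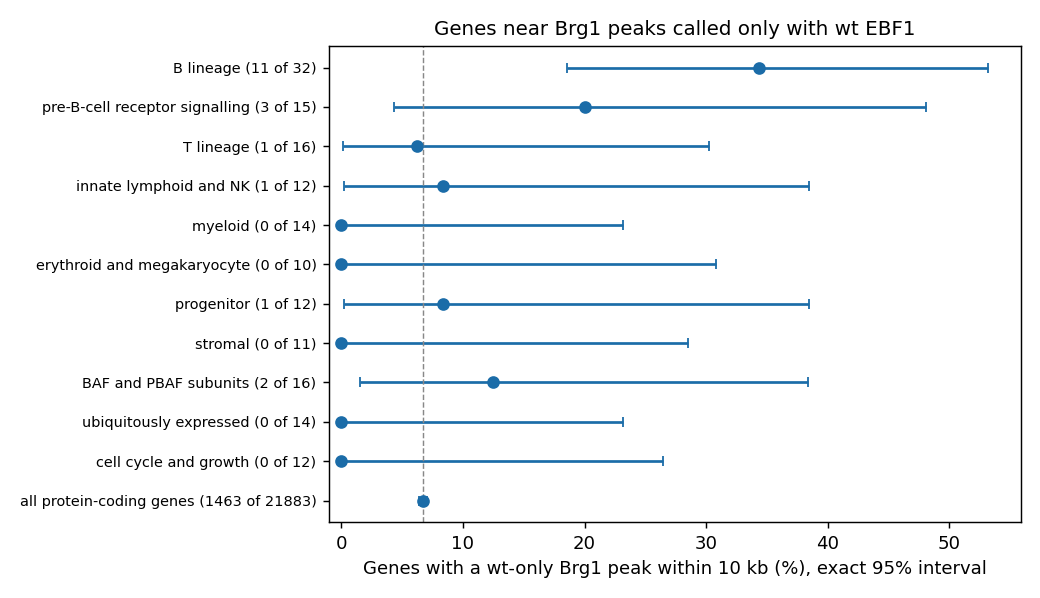
Share of the genes of each list (%) with a wt-list-only Brg1 peak in the gene or within 10 kb, with exact 95% intervals; the dashed line marks all protein-coding genes, 6.69%. B lineage genes stand at 34.4% (11 of 32), and 5 lists have no gene with such a peak.

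The other lists held few of the sites. In pre-B-cell receptor signalling, 3 of 15 genes had one: Vav1, a guanine nucleotide exchange factor (5.69), its relative Vav2 (5.28) and Pik3ap1, the adaptor BCAP (5.16). The Vav1 site met EBF1 in both forms, at 8.02 with wt and 7.54 with dC. In the T lineage list 1 of 16 genes had one, Il2ra, with 2 peaks. The peak over its start (6.15) met A-MuLV Brg1 in wt alone (5.67) and EBF1 in wt alone (6.09), and the other (5.20) met none. In the innate lymphoid and NK list 1 of 12 genes had one, Id2, an inhibitor of E proteins (5.92), and A-MuLV Brg1 was called there with dC alone (4.14). In the progenitor list 1 of 12 genes had one, the homeobox gene Meis1, with a peak over its start (6.50) that at 3552 bp was the widest of all 1932, and another at 5.78. Neither met an A-MuLV peak. Of the 16 BAF and PBAF subunits, Arid1b had 2 sites (5.28 and 5.14) and Smarca2, the other ATPase of these complexes, had 1 (5.28). The Smarca2 site met A-MuLV Brg1 in wt alone (4.53) and EBF1 in dC alone (6.30), but lay only 91 bp from a peak of another fetal liver list. For the Arid1b sites that distance was 367 and 1638 bp. None of the 14 myeloid, 10 erythroid and megakaryocyte, 11 stromal, 14 ubiquitously expressed and 12 cell cycle genes had one. A count of 0 of 14 has an upper interval bound of 23.2%. Smarca4 had 5 wt peaks within 10 kb and Gata3 had 0, and neither gene had a wt-list-only peak.

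Some genes held several sites. Inpp4b, a lipid phosphatase gene of 792047 bp, held 7 wt-list-only peaks among 14 wt peaks in its body. Tmem108 held 6 of 20, Macrod2 5 of 7, and Col26a1, Rgl1 and Zmat4 4 each, of 8, 18 and 11. Gcnt1, a glycosyltransferase gene, and Dzip1, a cilium gene, held 3 each, and these were all the wt peaks in their bodies. Arhgap23 held 3 of 10 and Irf2 3 of 6. The lists of the other versions were not empty there: in the Inpp4b body, for example, the dC list held 5 peaks, dPLD 6, F-GATA3 7 and the empty vector 2. In Dzip1 the other 4 lists held 0. All 4 sites in Col26a1, which encodes a collagen chain, met A-MuLV Brg1 with wt (folds 6.42, 5.22, 5.75 and 14.0) and none met it with dC. In the whole body of Col26a1, the A-MuLV Brg1 lists held 17 peaks with wt and 7 with dC. When sites up to 50 kb apart were joined, 1483 stood alone, 175 runs held 2 and 29 runs held 3 or more. One of the densest lay at Bcor, a gene for a corepressor of BCL6, where 4 of 8 wt peaks within 55.0 kb were wt-list-only and 0 met A-MuLV Brg1 with wt.

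The Igk locus, which encodes the kappa light chain, held many of the sites. On chr6:67555636-70726754, 37 of 141 wt peaks were wt-list-only (26.2%, 19.2 to 34.3), against 6.58% of all wt peaks. Their folds ran from 3.81 to 9.08. Another 39 had 1 altered version, 37 had 2 and 26 had 3 without an empty-vector peak. The lists of the other versions held 28 (dC), 69 (dPLD), 108 (F-GATA3) and 2 (empty) peaks in the locus. A-MuLV Brg1 was called with wt at 15 of the 37 sites and with dC at 0, and EBF1 at 5, of which 4 were with wt alone. The A-MuLV lists as a whole ran the same way there, with 195 Brg1 peaks in wt and 17 in dC, and 62 EBF1 peaks in wt and 15 in dC. A-MuLV calls at the other wt peaks of the locus were not counted, so the sites cannot be set against them. Of the 15 sites with A-MuLV Brg1, 14 lay in a stretch of 742.8 kb whose ends were set by these same sites. That stretch held 16 of the 37 sites. At Igh, the heavy chain locus, 4 of 111 wt peaks were wt-list-only (3.60%). Outside both loci the wt list still held 188 of the 263 sites with A-MuLV Brg1 in 1 list (71.5%, 65.6 to 76.9).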

How the data were processed

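The 9 peak lists of 14 mouse samples were used; signal tracks, inputs and reads were not analysed here. The tools listed in the submitters' processing notes are MACS2 2.1.2, Bowtie2 2.3.3.1, deepTools 3.3.1 and SAMtools 1.9, with the build GRCm38 and no roles or settings. For the peak threshold, the control of each library and duplicate reads, the setting is not given in the sources used here. Each deposited list gives positions, the authors' fold ratio, −log10 p and −log10 q at the summit, and a deposited score, which was not used further. The fetal liver and EBF1 lists end near a −log10 q of 10.0, the A-MuLV Brg1 lists at 1.37 (wt) and 1.33 (dC). Peaks on unplaced scaffolds were left out (0 to 63 a list). After that the fetal liver Brg1 lists held from 17687 (empty) to 30301 (dC) peaks, with 27550 in dPLD and 25072 in F-GATA3.

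Peaks overlapped when they shared at least 1 bp. Shares carry exact Clopper-Pearson 95% intervals (scipy 1.17.1, Python 3.11.15). They cover counting error only, peaks are not replicates, and the intervals compare lists, not conditions. No test was made, since each group had 1 library. Overlap code was tested on simulated data. Genes came from a RefSeq table (GRCm38.p6), extended by 10 kb. Promoter windows covered 79.9% of protein-coding genes and none on chromosome 18. Each site took the name of its nearest protein-coding gene. Named were the 10 highest sites, the highest 8 with A-MuLV Brg1 in wt alone or with EBF1 and the highest 5 with EBF1 in wt alone, list genes with a site, the 10 genes with most sites, the 5 densest runs, and Ebf1, Gata3 and Smarca4. A few sites that this rule names are not reported here. The members and gene lists were chosen with earlier results of these data known. Alternatives were a higher −log10 q, lists of equal length, other overlap rules, the taller sites, sites outside Igh and Igk and a gene extension of 50 kb.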

Additional observations from a re-analysis of the deposited data

How the results depend on the processing

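Each result stood on 1 library per group, so the spread between replicates is unknown. No paired analysis was possible because each group had 1 library. Where a setting changed the lists or the overlap rule, the sites were chosen anew and need not be among the 1932. Over 55 combinations of result and setting, 36 stayed within the interval of the reported value, or within 1.5 times a reported count, and 19 moved; the cause was not tested. The number of wt-list-only peaks became 887 with the 5 fetal liver lists held to 17687 peaks each, 3205 when summits had to lie within 200 bp, and by construction 1035 when only sites at or above their median fold were kept. A −log10 q of at least 20 in every list gave 1492 sites, of which only 160 were among the 1932. The cut also shortened the A-MuLV Brg1 lists, whose median −log10 q was 6.52 (wt) and 5.64 (dC). A-MuLV Brg1 was then called at 2.41% (wt) and 0.335% (dC) of sites, where all wt peaks had 7.92% and 5.40%. This setting gave 5 B lineage genes (6.36% of all protein-coding genes). It put 94.3% of 35 sites on the wt side of the A-MuLV Brg1 split (all wt peaks 66.2%). Lists of equal length gave 32.1% (wt), 21.5% (dC) and 21.4% (EBF1), where all wt peaks had 64.8%, 67.0% and 29.0%, and 2 B lineage genes (3.66% of all genes). Summits within 200 bp gave 18.8%, 14.4% and 12.1%, where all wt peaks had 38.3%, 40.7% and 16.7%, with 61.5% on the wt side. Sites at or above their median fold gave EBF1 at 16.6% and 7 B lineage genes (3.58% of all genes). No other peak within 1000 bp gave 7 such genes (5.92%), and the middle 80% of widths gave 6 (5.51%). That width setting and the one that left out promoter windows were chosen after seeing the data. The A-MuLV Brg1 shares were below those of all wt peaks under each of these 3 settings of the lists, and the wt share above the dC share. Peak calls near the threshold and the unknown depth limit every count of absent peaks.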

Other observations

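The sites below were picked after their A-MuLV values had been seen. A wt-list-only peak with a modest fold of 7.10, nearest to Mib1 (a ubiquitin ligase of Notch ligands) at 99582 bp, lay at the EBF1 wt peak of highest fold in the whole EBF1 wt list, 89.6. There the EBF1 dC fold was 52.8, and A-MuLV Brg1 stood at 63.4 with wt, the rank 2 peak of its list, and at 12.4 with dC. A site of fold 5.62 inside Ciita, the master regulator of MHC class II genes, had EBF1 at 23.8 with wt and 52.3 with dC, A-MuLV Brg1 at 3.54 with wt and no dC Brg1 peak. Sites near Anxa11 (6.91) and in Stx1a (6.01) had EBF1 at 35.3 and 43.4 with wt, and at 31.2 and 36.7 with dC.

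In a stretch of 18.9 kb nearest to E2f8, an atypical E2F repressor of the cell cycle, 5 of 6 fetal liver wt peaks were wt-list-only. All 5 met A-MuLV Brg1 with wt, at folds of 4.13, 3.85, 4.51, 10.3 and 17.5, and none met it with dC. EBF1 was called with wt alone at the last 2 of them, both at 11.0, and with dC alone at the second, at 6.16.

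The 75 sites with A-MuLV Brg1 in dC alone run against the main split. The highest were in Pitpnm2, a phosphatidylinositol transfer protein gene (fetal liver fold 9.13, A-MuLV Brg1 with dC at 4.28, EBF1 at 8.36 with wt and 13.2 with dC), near Prelid3a (7.28), 16244 bp from the immediate early gene Fos (7.13), in Cmip (6.73) and near Hcfc2 (6.73). Of these, the Pitpnm2 site lay 185 bp from a peak of another fetal liver list.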
